A study of Homo sapiens with 32 samples.

Results

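ZFP36, ZFP36L1, ZFP36L2, BTG1, BTG2, BTG3, TOB1 and TOB2 code for proteins that mark mRNAs for decay or tie them to the enzymes that shorten their poly(A) tails. These 8 genes were taken by symbol from both count tables, which list 57773 genes, and all 8 had enough counts to be tested after 6 h and after 24 h. RNA was sequenced from HEK293 cells, a line derived from human embryonic kidney, after transient transfection with an expression plasmid for the angiotensin II receptor AT1R, so that the receptor was carried by a plasmid and not every cell of a culture need hold it. The cells had received no further stimulus (control), angiotensin II (AII, 1 nmol/l), epidermal growth factor (EGF, 10 µg/l) or both ligands together (AII+EGF), in medium without serum, for 6 h or 24 h. All groups, controls included, carried AT1R. There were 4 libraries per condition after 6 h and after 24 h, except for AII+EGF after 24 h with 3. The comparisons address whether AT1R and the EGF receptor, alone or together, change the mRNA of these regulators.

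An mRNA is usually degraded after its poly(A) tail has been removed, mostly by the CCR4-NOT complex, and is then decapped and digested. ZFP36 (tristetraprolin) and its relatives ZFP36L1 and ZFP36L2 bind AU-rich elements in mRNAs of growth factors, cytokines and immediate early genes through a pair of zinc fingers and recruit CCR4-NOT. Proteins of the BTG/TOB family bind the CNOT7 and CNOT8 deadenylases, slow proliferation, and in the case of TOB1 and TOB2 also bind the poly(A) binding protein. ZFP36 and BTG2 are known as early response genes whose mRNAs rise soon after growth factor addition in many cell types.

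The promoters of BTG2 and ZFP36L1 are shown because they were the only ones among the members with a match to 1 of 4 motifs of factors that respond to growth factor and receptor signalling. The windows run from 250 bases before to 50 bases after the RefSeq start site in GRCh38.p14, and 7 of the 8 members, all but ZFP36L2, had entries, 9 in all.
BTG2, chr1:203305269-203305568, plus strand: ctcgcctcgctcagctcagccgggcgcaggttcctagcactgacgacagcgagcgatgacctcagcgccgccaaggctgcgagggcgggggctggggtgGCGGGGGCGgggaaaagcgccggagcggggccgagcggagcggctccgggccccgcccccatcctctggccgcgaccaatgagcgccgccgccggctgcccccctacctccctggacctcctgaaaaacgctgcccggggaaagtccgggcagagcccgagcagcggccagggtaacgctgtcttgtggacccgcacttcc
ZFP36L1, chr14:68793367-68793666, minus strand: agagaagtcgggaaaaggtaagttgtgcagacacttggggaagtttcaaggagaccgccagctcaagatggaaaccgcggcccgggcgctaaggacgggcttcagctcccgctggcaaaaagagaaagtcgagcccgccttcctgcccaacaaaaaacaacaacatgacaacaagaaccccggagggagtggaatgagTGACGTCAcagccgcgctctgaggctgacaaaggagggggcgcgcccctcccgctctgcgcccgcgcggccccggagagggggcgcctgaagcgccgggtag
Capitals mark the matches. In BTG2 it is an EGR motif (GCGGGGGCG or GCGTGGGCG, searched on both strands), at positions -151 to -143 from the start, a motif held by 5.77% of 35116 promoters of the same length. In ZFP36L1 it is a cAMP response element (TGACGTCA), at positions -52 to -45, held by 1.85%. None of the 9 windows held a CArG box, the motif of SRF, held by 1.29% of promoters, or an AP-1 motif (TGANTCA), held by 7.71%. A match describes the letters of a window and is not a measured binding site.

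The libraries of 6 h and 24 h were of different kinds. After 6 h, 3881841 to 8540815 reads per library were assigned to genes, 81.4% to 84.7% of them to protein-coding genes. After 24 h, 6646227 to 33070903 reads were assigned, only 20.8% to 63.4% of them to protein-coding genes and 8.90% to 57.2% to U1 small nuclear RNA. The common biological coefficient of variation was 10.6% after 6 h and 29.1% after 24 h over all genes. At both times the libraries of each condition were divided into 2 series, the lower and the higher library numbers in the labels. The labels name no series, so this division is an inference, and what it stands for is not known. After 24 h it nearly follows the names of the count columns. All mapped columns of the first series are named filtered, and of the second series only AII+EGF replicate 3 is. The names do not say what was filtered. The defining markers of other cell types were at or near 0: CD3E had no count in any library, and PTPRC, CDH5, ALB, ACTA1 and MYH2 reached at most 1.5 FPM (read counts scaled to a common library size, as CPM, with TMM factors). Of the markers of the line after 6 h, VIM (261 to 322 FPM), NEFM (358 to 811 FPM) and LIN28B (109 to 195 FPM) were high, whereas the keratins KRT8 (7.35 to 15.5 FPM) and KRT18 (2.10 to 8.40 FPM) were low. AGTR1, which codes for the transfected receptor, stood at 950 to 1568 FPM after 6 h and at 369 to 685 FPM after 24 h. Its raw counts per library were 4108 to 10709 after 6 h and 3585 to 11557 after 24 h. FPM was scaled separately at each time and over libraries of different kinds, so these ranges do not show a change of the receptor mRNA with time.

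Per length of its exons, BTG3 was the most abundant of the regulators in control cells after 6 h, with a mean of 35.3 FPM per kilobase, followed by BTG2 (20.8), ZFP36L2 (20.5), TOB2 (14.3), BTG1 (13.4), TOB1 (8.25), ZFP36L1 (3.76) and ZFP36 (0.580). The ranges of BTG2 and ZFP36L2 overlapped over the 4 control libraries, as did those of TOB2 and BTG1, whereas the other neighbours in this order were separated. In control cells after 24 h the order on the same scale was BTG3 (15.3), BTG2 (14.6), ZFP36L2 (11.6), TOB1 (7.94), BTG1 (6.43), TOB2 (6.39), ZFP36L1 (5.08) and ZFP36 (0.891), and only the steps from ZFP36L2 to TOB1 and from ZFP36L1 to ZFP36 were free of overlap. ZFP36, the founding member of its family, was close to the detection limit, with 1 to 17 counts per library after 6 h and 9 to 45 after 24 h. Its mean stayed below 5 FPM in every group, so that it could not meet the abundance threshold of the call rule. Some counts may be shared with neighbours, since the strand setting of the counting was not given in the sources used here. BTG1 (GRCh37 chr12:92534054-92539622, minus strand) shares 274 exonic bases with BTG1-DT on the opposite strand and 503 with LINC01619 on its own strand, and TOB1 (GRCh37 chr17:48939584-48945339, minus strand) shares 281 with TOB1-AS1 on the opposite strand, so that the values of BTG1 and TOB1 are less certain. The other members lie at chr19:39897487-39900052 (ZFP36, plus strand), chr14:69254377-69262970 (ZFP36L1, minus), chr2:43449541-43453745 (ZFP36L2, minus), chr1:203274619-203278730 (BTG2, plus), chr21:18965971-18985263 (BTG3, minus) and chr22:41829498-41842805 (TOB2, minus) in the same build. Exonic bases are also shared by ZFP36L2 (826, opposite strand), ZFP36L1 (512, own strand) and BTG3 (326, opposite strand) with long non-coding RNA genes. Those genes were not listed in the count tables, so their expression was not measured and the values of ZFP36L2, ZFP36L1 and BTG3 are less certain too. TOB2P1, a pseudogene copy of TOB2, had at most 25 counts in any library.

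To set the time points side by side, levels were also scaled to the protein-coding genes alone, as CPM of their summed counts. On this scale ZFP36L1 stood at 29.4 ± 6.15 (SD, n = 4) in control cells after 6 h and at 77.9 ± 5.07 (n = 4) after 24 h. The corresponding levels were 25.2 ± 6.78 and 47.5 ± 5.21 for TOB1, 69.2 ± 11.9 and 95.6 ± 6.34 for BTG2, 91.3 ± 12.2 and 102 ± 16.1 for ZFP36L2, 97.9 ± 8.72 and 83.5 ± 12.8 for BTG3, 78.7 ± 7.38 and 74.2 ± 18.6 for BTG1, 74.8 ± 4.42 and 65.9 ± 7.59 for TOB2, and 1.39 ± 0.57 and 4.20 ± 1.74 for ZFP36. The ranges of the 4 control libraries at each time did not overlap for ZFP36L1, TOB1, BTG2 and ZFP36, with the 24 h libraries higher, nor for TOB2, with the 24 h libraries lower, whereas those of ZFP36L2, BTG3 and BTG1 overlapped. The share of all genes separated in this way was not worked out, so the separation cannot be read as a trait of these members. The tables were normalised separately and incubation time and library set cannot be told apart, so no test was made of these levels.

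After 6 h, none of the 8 regulators was called with EGF, AII or AII+EGF. A gene was called at a false discovery rate (FDR, Benjamini-Hochberg, edgeR quasi-likelihood test, over all 18618 genes tested after 6 h) under 0.05 if it also changed by more than 1.5-fold and had over 5 FPM on average in the higher group. Against control, EGF called 322 genes (1.73%) and AII+EGF 363 genes (1.95%), and AII called 0 (0%). At an unadjusted p under 0.05 there was 1 member with EGF (TOB2), 2 with AII+EGF (BTG2 and ZFP36L2) and 1 with AII (ZFP36L2), while 20.2%, 18.9% and 4.54% of all genes passed. DESeq2 with the same call rule also called 0 members in each comparison. The earliest libraries were those of 6 h, so a rise of an early response gene that was over by then was not measured. Since these are bulk samples, less mRNA per cell and fewer cells expressing a gene cannot be told apart. The labels do not say whether the libraries of a group came from separate cultures, so the p-values measure the spread between libraries.

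**Figure D1:**
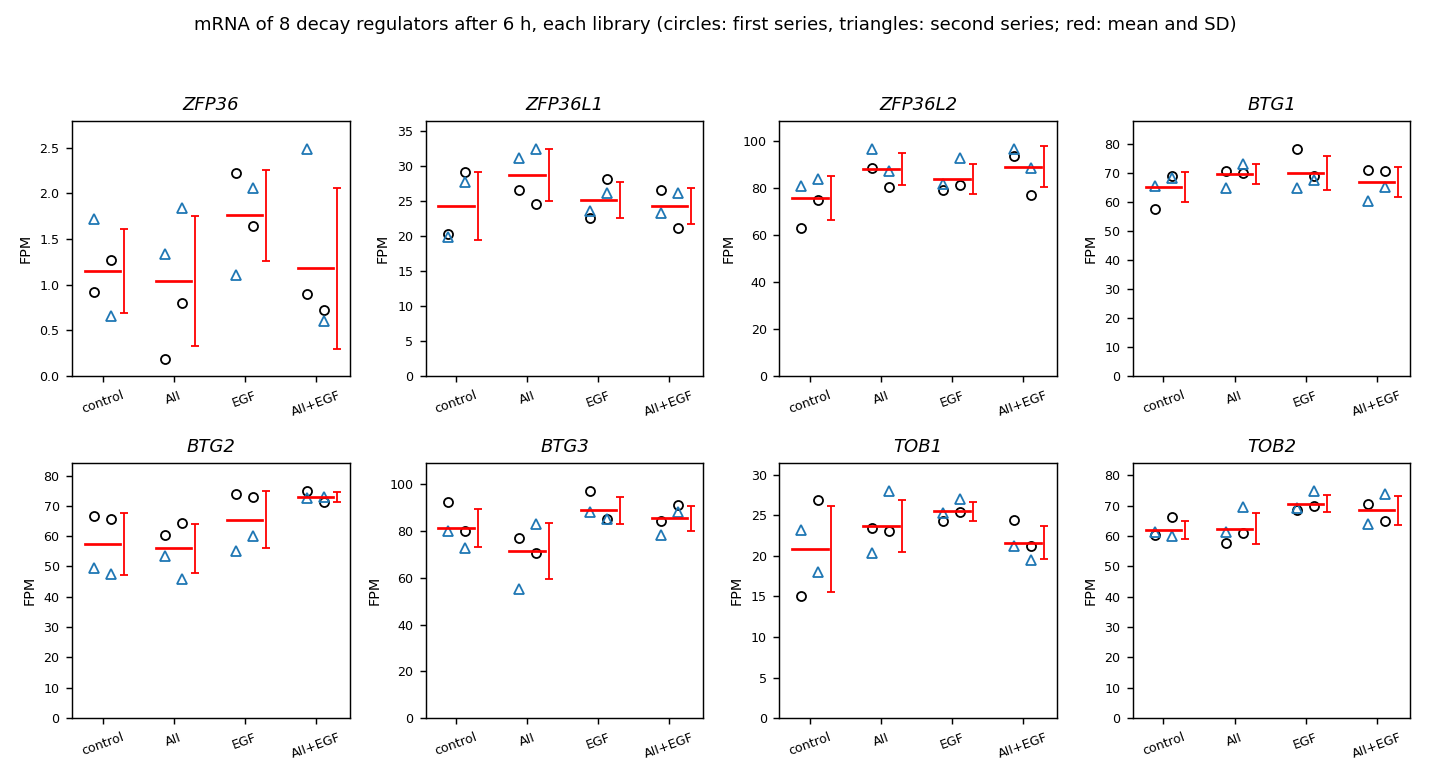
Levels of the 8 regulators after 6 h in FPM (vertical axes, starting at 0) for control, AII, EGF and AII+EGF, with 1 point per library, circles for the first and triangles for the second library series, and red lines for the mean and SD of 4 libraries. BTG2 stands apart by series in control, AII and EGF cells but lies between 71.2 and 75.1 FPM in all 4 AII+EGF libraries, and ZFP36 lies below 2.5 FPM throughout.

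Among ZFP36, ZFP36L1 and ZFP36L2 after 6 h, ZFP36L2 had the highest FPM and the clearest difference from control. It stood at 62.9, 74.8, 81.1 and 83.9 FPM in control cells, at 93.8, 77.2, 96.8 and 88.6 FPM with AII+EGF, and at 88.6, 80.3, 96.7 and 87.1 FPM with AII. The groups overlapped, since the lowest treated libraries lay below the highest control libraries. The log2 fold change was 0.23 (SE 0.09, 95% interval 0.04 to 0.42, adjusted p = 0.156) with AII+EGF and 0.22 (SE 0.09, interval 0.02 to 0.41, adjusted p = 0.987) with AII. With EGF it was 0.15, with an interval of -0.04 to 0.34.

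ZFP36L1, a close relative of ZFP36L2 with the same type of zinc fingers, stood at 19.9 to 29.2 FPM in control cells and at 22.6 to 28.2 FPM with EGF, which lay inside the control range. Its log2 fold change was 0.04 with EGF (95% interval -0.23 to 0.31), -0.01 with AII+EGF (-0.29 to 0.26) and 0.22 with AII (-0.06 to 0.50). ZFP36, the early response member, had 4 to 9 counts per library in control cells, and 7 to 17 in EGF and 4 to 17 in AII+EGF libraries. Its log2 fold change was 0.61 with EGF but the interval ran from -0.39 to 1.62, and with AII+EGF it was 0.07 (-1.0 to 1.15), an interval that holds a 2-fold change in either direction.

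BTG2, which binds CNOT7 and CNOT8 and is known as an early response gene and p53 target, came nearest to a call after 6 h. In control cells it stood at 66.6 and 65.7 FPM in the first library series and at 49.6 and 47.6 FPM in the second. With AII+EGF it stood at 75.1 and 71.2 FPM in the first series and at 72.6 and 72.8 FPM in the second. All 4 AII+EGF libraries lay above all 4 control libraries, a separation that 12.1% of all genes showed in this comparison. Within series, the difference from control was 0.14 on the log2 scale in the first and 0.58 in the second, where the control levels were lower. The log2 fold change over both series was 0.35 (SE 0.12, 95% interval 0.10 to 0.59, unadjusted p = 0.00704, adjusted p = 0.0866). With the library series as a block it was 0.37 with an adjusted p of 0.00935, still below 1.5-fold. With an FDR under 0.05 as the only criterion, that fit counted BTG2 as the 1 member that passed, among 7.15% of all genes. The adjusted p was also under 0.05 without the filter on low counts and without control replicate 1, each time at less than 1.5-fold. Across all alternatives it ran from 0.00935 to 0.245, the highest without control replicate 4.

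With EGF alone BTG2 stood at 73.9, 72.8, 55.1 and 60.0 FPM, again divided by series, with a log2 fold change of 0.19 (95% interval -0.05 to 0.43, adjusted p = 0.386). With AII alone it stood at 60.3, 64.5, 53.4 and 45.9 FPM, with a log2 fold change of -0.02 (-0.27 to 0.23). AII+EGF did not differ from EGF beyond the spread, at a log2 difference of 0.16 (-0.08 to 0.40, adjusted p = 0.733), and the interaction, by which the AII+EGF effect exceeded the added effects of the single ligands, was 0.18 (-0.16 to 0.53). The BTG2 levels with AII+EGF were above all 4 AII libraries, at a log2 difference of 0.37 (0.13 to 0.62, adjusted p = 0.0652), where 12.8% of all genes were separated. In that comparison, too, the fit with the series block passed BTG2 at FDR alone, among 7.05% of genes.

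BTG1, the nearest relative of BTG2, stood at 57.8 to 69.1 FPM in control cells and at 64.9 to 78.5 FPM with EGF. Its intervals were narrow, with a log2 fold change of 0.10 with EGF (-0.07 to 0.27), 0.03 with AII+EGF (-0.14 to 0.21) and 0.09 with AII (-0.08 to 0.27). BTG3, a family member that also restrains the cell cycle, stood at 72.6 to 92.5 FPM in control cells and at 85.1 to 97.3 FPM with EGF. Its log2 fold change was 0.13 with EGF (-0.07 to 0.34), 0.07 with AII+EGF (-0.13 to 0.28) and -0.19 with AII (-0.40 to 0.02). Between AII+EGF and AII the log2 difference of BTG3 was 0.26 (0.05 to 0.47, adjusted p = 0.138), 0.24 in the first series and 0.26 in the second.

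TOB2, which like TOB1 links the poly(A) binding protein with the deadenylases, was the member with separate groups after EGF. It stood at 60.4, 66.2, 61.3 and 60.0 FPM in control cells and at 68.6, 69.9, 69.1 and 74.9 FPM with EGF, where every EGF library lay above every control library. Such a separation was found for 12% of all genes. The log2 fold change was 0.19 (SE 0.08, 95% interval 0.03 to 0.35, adjusted p = 0.165), 0.13 in the first series and 0.25 in the second. With AII+EGF it was 0.14 (-0.02 to 0.30) and with AII it was 0.00 (-0.16 to 0.17).

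TOB1 stood at 15.03, 27.0, 23.2 and 18.0 FPM in control cells and at 24.3, 25.4, 25.3 and 27.0 FPM with EGF. The EGF libraries lay close together, while the control libraries covered a wide range that reached into them. The log2 fold change was 0.28 with EGF (-0.01 to 0.57, adjusted p = 0.256), 0.04 with AII+EGF (-0.25 to 0.33) and 0.16 with AII (-0.13 to 0.46). The interaction was -0.41 (-0.82 to 0.00, unadjusted p = 0.0523, adjusted p = 0.634).

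Taken as a list, all 8 members had a positive log2 fold change with EGF after 6 h, from 0.04 (ZFP36L1) to 0.61 (ZFP36), with a median of 0.17 beside -0.01 for all genes tested. Of 13001 genes above 5 FPM, 48.8% were positive. The members were measured in the same libraries, so that their signs are not independent, and without control replicate 3 ZFP36L1 turned to -0.04. With AII+EGF 7 of 8 were positive with a median of 0.07 (-0.01 for all genes), and with AII 5 of 8 with a median of 0.05 (0.00 for all genes). The intervals bound the changes: they lay within 1.5-fold in both directions for 7 of 8 members with EGF (not ZFP36), for 6 with AII+EGF (not ZFP36 and BTG2) and for 7 with AII (not ZFP36). The share of all genes with such intervals was not worked out, so these counts cannot be read as a trait of the members.

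**Figure D2:**
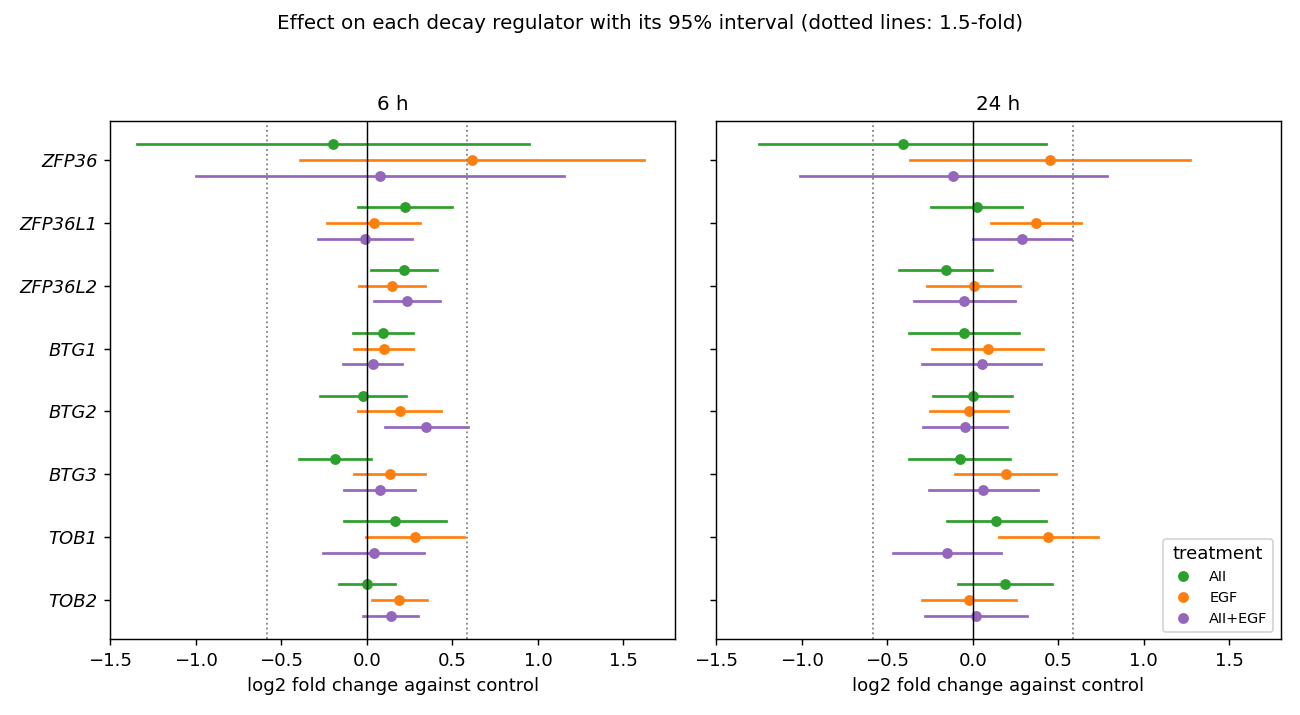
Log2 fold change against control (horizontal axis) for each regulator after 6 h (left) and 24 h (right), with AII, EGF and AII+EGF in different colours, points for the estimate and bars for its 95% interval, and dotted lines at a change of 1.5-fold. Most bars after 6 h lie between the dotted lines, BTG2 with AII+EGF reaches 0.59, and the bars of ZFP36 are the widest.

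The remaining comparisons after 6 h called 0 of 8 members as well. AII+EGF against EGF called 0 genes of any kind (0%), with 0 members at an unadjusted p under 0.05 (7.26% of all genes). AII+EGF against AII called 348 genes (1.87%), with 2 members at an unadjusted p under 0.05 (19.6% of all genes), BTG2 and BTG3. The interaction called 0 genes (0%), with 0 members at an unadjusted p under 0.05 (8.01% of all genes). Of the members, 6 had a negative interaction and 2, BTG2 and BTG3, a positive one, with a median of -0.14 beside 0.01 for all genes. No member passed the test for an effect of the combined ligands beyond the added single effects.

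After 24 h, again none of the 8 was called against control, among 22174 genes tested. EGF called 7 genes (0.0316%), AII+EGF 6 genes (0.0271%) and AII 0 (0%). At an unadjusted p under 0.05 there were 2 members with EGF (TOB1 and ZFP36L1), 1 with AII+EGF (ZFP36L1) and 0 with AII, where 8.48%, 5.4% and 2.49% of all genes passed. DESeq2 called 0 members here too. The share of U1 in the libraries was 8.90% to 22.9% in control, 12.2% to 33.5% with EGF, 11.4% to 57.2% with AII and 10.3% to 55.6% with AII+EGF, and its part in these results was not tested.

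**Figure D3:**
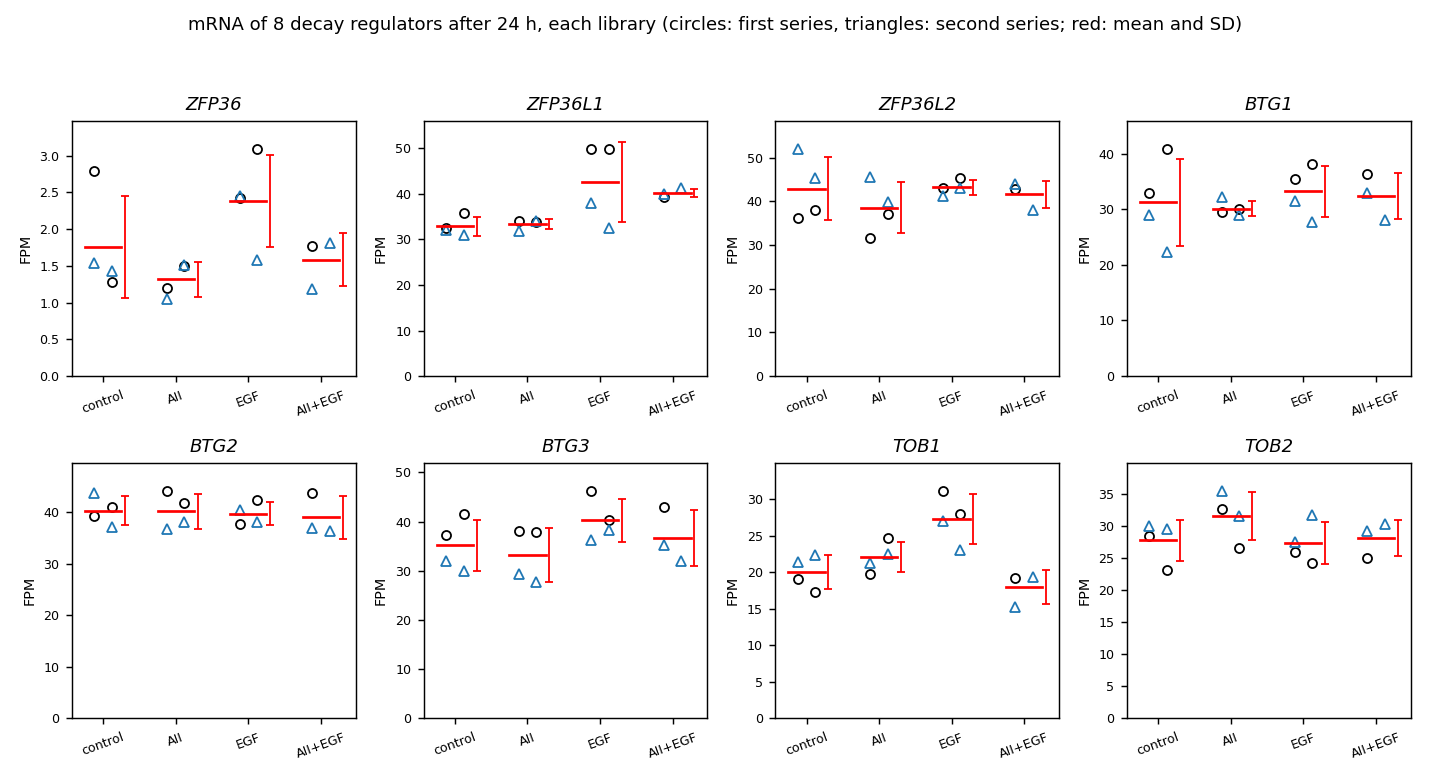
Levels of the 8 regulators after 24 h in FPM (vertical axes, starting at 0), with 1 point per library, circles for the first and triangles for the second library series, and red lines for the mean and SD of 4 libraries (3 with AII+EGF). TOB1 is highest with EGF, at 23.0 to 31.2 FPM, and at 15.2 to 19.4 FPM with AII+EGF, while BTG2 stays between 36.3 and 44.2 FPM in every group.

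TOB1 had the lowest unadjusted p of all members and comparisons after 24 h. It stood at 19.1, 17.2, 21.5 and 22.3 FPM in control cells and at 31.2, 27.9, 26.9 and 23.0 FPM with EGF, which separated the groups, as for 4.43% of all genes. With AII+EGF it stood at 19.3, 15.2 and 19.4 FPM, below every EGF library, a separation shown by 5.08% of all genes. With AII it stood at 19.8, 24.6, 21.3 and 22.5 FPM, inside and slightly above the control range.

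The log2 fold change of TOB1 with EGF was 0.44 (SE 0.14, 95% interval 0.15 to 0.73, unadjusted p = 0.00437, adjusted p = 0.342), and it was 0.70 in the first library series and 0.19 in the second. Between AII+EGF and EGF the log2 difference was -0.59 (SE 0.15, interval -0.91 to -0.28, unadjusted p = 0.000853), which exceeded 1.5-fold but had an adjusted p of 1. The interaction was -0.73 (-1.16 to -0.30, unadjusted p = 0.00193, adjusted p = 1). The difference between AII+EGF and EGF was -0.62 in the first series, where AII+EGF had 1 library, and -0.53 in the second. The signs of the EGF effect and of the interaction were the same after 6 h and 24 h, with 0.28 and 0.44 for EGF and -0.41 and -0.73 for the interaction. The interaction subtracts the EGF effect of the same libraries, so that at each time the signs of the EGF effect and the interaction are not independent. None of these values passed correction over all genes.

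ZFP36L1 was the other member with an unadjusted p under 0.05 against control after 24 h. It stood at 32.4, 35.8, 32.1 and 30.9 FPM in control cells, at 49.9, 49.8, 37.9 and 32.5 FPM with EGF and at 39.3, 40.0 and 41.2 FPM with AII+EGF. The EGF libraries of the first series were the highest of all and 1 EGF library of the second lay within the control range, whereas all AII+EGF libraries lay above control, as for 7.18% of all genes. The log2 fold change was 0.37 with EGF (SE 0.13, 95% interval 0.11 to 0.64, adjusted p = 0.398) and 0.29 with AII+EGF (SE 0.14, interval 0.00 to 0.58, adjusted p = 0.921). The EGF difference was 0.55 in the first series and 0.16 in the second, and the AII+EGF difference 0.20 and 0.36. With AII the levels were 34.0, 33.8, 31.8 and 34.0 FPM, with a log2 fold change of 0.02 (-0.24 to 0.29).

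For the other members after 24 h, every treated group overlapped with control. ZFP36L2 stood at 36.2 to 52.0 FPM in control cells and at 41.3 to 45.3 FPM with EGF, with a log2 fold change of 0.01 (-0.27 to 0.28). BTG2 stood at 37.2 to 43.8 FPM in control cells, at 37.8 to 42.5 FPM with EGF and at 36.3 to 43.8 FPM with AII+EGF, with a log2 fold change of -0.02 (-0.25 to 0.21) and -0.04 (-0.29 to 0.20). The difference between library series that BTG2 showed after 6 h was absent from its control means after 24 h, at 40.1 FPM in the first and 40.5 FPM in the second series.

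BTG1 and BTG3 were higher in the first than in the second series in control cells, at 32.9 and 40.9 against 28.9 and 22.3 FPM for BTG1, and at 37.3 and 41.4 against 32.0 and 29.9 FPM for BTG3. Their log2 fold changes with EGF were 0.09 (-0.24 to 0.41) and 0.19 (-0.10 to 0.49). TOB2 stood at 23.1 to 29.9 FPM in control cells and at 24.1 to 31.7 FPM with EGF, with a log2 fold change of -0.02 (-0.30 to 0.25). ZFP36 had 23 to 33 counts per library in control cells, and 19 to 45 in EGF and 9 to 34 in AII+EGF libraries, with a log2 fold change of 0.45 with EGF (-0.37 to 1.27) and of -0.11 with AII+EGF (-1.01 to 0.78). The intervals lay within 1.5-fold for 5 of 8 members with EGF (not ZFP36, ZFP36L1 and TOB1), and for 7 with AII+EGF and 7 with AII (not ZFP36). Here too the share of all genes was not worked out.

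Between the treated groups after 24 h, 0 of 8 members was called. AII+EGF against EGF called 0 genes (0%), with 1 member, TOB1, at an unadjusted p under 0.05 (3.37% of all genes). AII+EGF against AII called 9 genes (0.0406%), with 0 members at an unadjusted p under 0.05 (4.28% of all genes). In that comparison 2 members, ZFP36L1 (higher) and TOB1 (lower), had separate groups, as did 6.95% of all genes, with log2 differences of 0.27 (-0.02 to 0.55) and -0.29 (-0.60 to 0.03). The interaction called 0 genes (0%), with 1 member, TOB1, at an unadjusted p under 0.05 (2.37% of all genes).

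Effects after 24 h were compared with those after 6 h in 1 fit of all libraries, over 21932 genes. The EGF effect of 24 h minus that of 6 h called 35 genes (0.16%) but 0 members, and 0 members were at an unadjusted p under 0.05 (10.1% of all genes). The corresponding difference for AII+EGF called 24 genes (0.109%) but 0 members, and 1 member, BTG2, was at an unadjusted p under 0.05 (7.49% of all genes). For BTG2 the AII+EGF effect was lower after 24 h by a log2 difference of -0.41 (SE 0.17, 95% interval -0.75 to -0.07, adjusted p = 0.531). For ZFP36L1 the EGF effect was higher after 24 h, by 0.32 (-0.06 to 0.70, adjusted p = 0.586).

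Of 41 genes of the mRNA decay machinery and its partners, 40 were tested after 6 h, all except BTG4, a BTG family member with too few counts. With EGF 0 of 40 were called, 11 had an unadjusted p under 0.05 (20.2% of all genes) and the median log2 fold change was 0.06. With AII+EGF 1 of 40 was called, ZC3H12A, which codes for an endonuclease (regnase-1) that cleaves cytokine mRNAs, with a log2 fold change of 0.66 (SE 0.20, adjusted p = 0.0437), while 12 had an unadjusted p under 0.05 (18.9% of all genes) and the median was 0.02. The next in size was MAPKAPK2, which codes for the kinase that phosphorylates ZFP36, at 0.46 (SE 0.12, adjusted p = 0.0201), below 1.5-fold. MAPKAPK2 was called between AII+EGF and AII, at 0.65 (SE 0.12, adjusted p = 0.00137), as 1 of 40. These counts stand beside 1.73%, 1.95% and 1.87% of all genes, and a single gene allows no statement on the list.

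None of the 11 tested subunits of CCR4-NOT, to which all members connect, was called. With AII+EGF after 6 h the log2 fold change was -0.03 (95% interval -0.16 to 0.10) for the scaffold CNOT1, 0.00 (-0.17 to 0.18) for the deadenylase CNOT7 and -0.17 (-0.35 to 0.01) for the deadenylase CNOT8. PABPC1, the poly(A) binding protein that TOB1 and TOB2 bind, stood at -0.14 (-0.28 to 0.00). PAN2, the catalytic subunit of the other deadenylase complex, and ELAVL1, which binds AU-rich elements and protects their mRNAs, passed the FDR below 1.5-fold. PAN2 was lower, at -0.44 (SE 0.08, adjusted p = 0.000914), and ELAVL1 higher, at 0.40 (SE 0.08, adjusted p = 0.00243). PRMT1, an arginine methyltransferase that binds BTG1 and BTG2, at 0.29 (adjusted p = 0.0216), and PABPC4, another poly(A) binding protein, at 0.22 (adjusted p = 0.045), passed in the same way. With EGF the genes that passed the FDR below 1.5-fold were PAN2, at -0.39 (adjusted p = 0.00308), ELAVL1, at 0.29 (adjusted p = 0.0286), and CNOT6L, a deadenylase subunit of CCR4-NOT, at 0.32 (adjusted p = 0.0248). The genes of this paragraph were chosen after their values were seen.

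Of 23 genes with AU-rich mRNAs, known targets of the ZFP36 family, 13 were tested after 6 h and 16 after 24 h. Those with too few counts after 6 h were TNF, CSF2, IL6, IL8, PTGS2, CXCL1, CXCL2, CCL2, PLAU and BIRC3. The tested genes therefore do not stand for the whole list. FOS, an immediate early gene, was called with EGF, at a log2 fold change of 2.34 (SE 0.34, adjusted p = 3.16e-05), and with AII+EGF, at 2.68 (SE 0.34, adjusted p = 2.89e-06), as 1 of 13 each time, beside 1.73% and 1.95% of all genes. FOS was the largest change of all 3 lists in both comparisons, although it stood at only 0.694 to 7.81 FPM (3 to 51 counts) over the libraries of 6 h. Its fold changes thus rest on low counts. FOS and DUSP1, which codes for a phosphatase of MAP kinases, were the 2 called between AII+EGF and AII, at 2.07 (SE 0.30) and 0.59 (SE 0.16, adjusted p = 0.0269). The median of the list was 0.27 with EGF and 0.21 with AII+EGF, and 6 and 7 of 13 had an unadjusted p under 0.05, beside 20.2% and 18.9% of all genes. With AII+EGF, CCND1 (cyclin D1) at 0.56 (adjusted p = 3.88e-05), CDKN1A (the cell cycle inhibitor p21) at 0.45 (adjusted p = 0.00891) and VEGFA at 0.38 (adjusted p = 0.0425) passed the FDR below 1.5-fold. With EGF this held for CCND1 at 0.56 (adjusted p = 4.49e-05), CDKN1A at 0.39 (adjusted p = 0.0214) and HIF1A at 0.34 (adjusted p = 0.0111). MYC stood at -0.01 (-0.17 to 0.15) with AII+EGF, and it and the genes below 1.5-fold were chosen after their values were seen. After 24 h, 0 of 40 machinery genes and 0 of 16 AU-rich genes were called with EGF, AII or AII+EGF. With EGF 2 of each list had an unadjusted p under 0.05, beside 8.48% of all genes. For machinery and AU-rich genes these counts were 2 and 1 with AII+EGF (5.4% of all genes) and 1 and 0 with AII (2.49%).

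**Figure D4:**
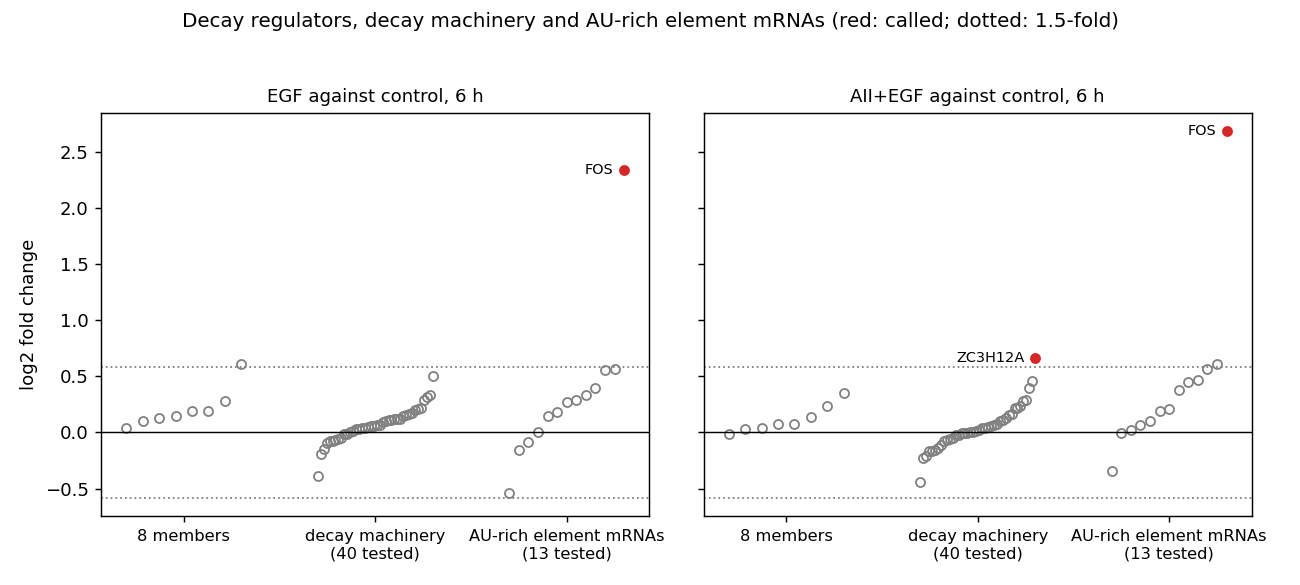
Log2 fold change against control after 6 h (vertical axis) for EGF (left) and AII+EGF (right), with 1 point per tested gene for the 8 regulators, 40 genes of the decay machinery and 13 AU-rich element mRNAs, sorted within each list, and dotted lines at 1.5-fold. FOS at 2.34 and 2.68 and ZC3H12A at 0.66 with AII+EGF are called (red), and all 8 regulators are grey.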

How the data were processed

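The deposited values are raw counts of reads per gene. According to the methods and the processing notes, the authors trimmed adaptors (Trim Galore, cutadapt 1.8.1), mapped reads to hg19 with TopHat2 2.0.14 and counted them with featureCounts 1.4.6 (the series text names HISAT2 instead), with annotation from Ensembl. Ribosomal RNA had been depleted. Counts of 31 of 32 labelled libraries were mapped; 1 AII+EGF library of 24 h had no matching column. The names of 8 of the 24 h columns say filtered, those of 7 do not.

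The members and gene lists were chosen with earlier results of these data known. Named were all 8 members, called genes of the lists and the 2 machinery genes with the largest change with AII+EGF after 6 h; genes of similar pattern were to be named only for called members. Normalisation (TMM), the filter on low counts (filterByExpr) and the quasi-likelihood F test used edgeR 4.0.16 under R 4.3.3, with 1 fit per time point with 4 conditions, and another of both times for time differences; DESeq2 1.42.0 was an alternative. SE and 95% intervals came from the fitted model. FPKM used exon lengths of GENCODE lifted to GRCh37. No pair of replicates agreed within counting noise (lowest chi-square divided by genes 1.95 at 6 h, 17.5 at 24 h). The tests were also run on simulated counts with set fold changes, and the outcome is not given here. The simulated libraries held no library series and no differences in the share of U1, so they do not cover these traits of the data. RNA of stably transfected cells was not analysed here.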

Additional observations from a re-analysis of the deposited data

Results flagged for a closer look

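In 2 of 56 combinations of member and group with 4 libraries, 1 library lay far from the others, by the ratio of its gap from the nearest to the range of the group, where chance gives about 2.8. For ZFP36 with AII+EGF after 6 h, replicate 3 was high, at 2.49 FPM (17 counts) beside 0.602 to 0.894 FPM in the others, with a ratio of 0.845. Without it the log2 fold change of ZFP36 was -0.62 in place of 0.07. For ZFP36L1 with AII after 24 h, replicate 3 was low, at 31.8 FPM beside 33.8 to 34.0 FPM in the others, with a ratio of 0.946; this library had the highest U1 share, 57.2% of its counts, and the part of U1 in its level was not tested.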

How the results depend on the processing

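The number of members called stayed 0 in all 14 comparisons with DESeq2, the library series as a block, protein-coding genes only and each library left out. In the 12 comparisons within a time point it also stayed 0 with DESeq2 size factors, without the filter on low counts, at an FDR of 0.01, and at FDR alone. The exception, an alternative added after seeing the data, was the series block with FDR alone, which gave 1 (BTG2) for AII+EGF against control and 1 (BTG2) against AII, both after 6 h. The fold changes against control of single members kept their sign and side of the threshold in 377 of 384 values. No paired analysis was possible because replicates carry a number in accession order only, and none in their labels.

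The sign turned, always near 0, for TOB2 with AII after 6 h (-0.0010 with DESeq2), ZFP36L1 with AII+EGF after 6 h (0.012 without the filter), ZFP36L2 with EGF after 24 h (-0.0085 without the filter), TOB2 with AII+EGF after 24 h (-0.015 with the series block, alone or with FDR alone) and BTG2 with AII after 24 h (0.012 with protein-coding genes only); the cause was not tested.

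With each library left out, 22 of 48 log2 fold changes changed sign at least once. After 6 h the ranges were -0.11 to 0.054 for BTG2 with AII, -0.012 to 0.082 for BTG1 with AII+EGF, -0.069 to 0.20 for TOB1 with AII+EGF, -0.049 to 0.038 for TOB2 with AII, -0.52 to 0.14 for ZFP36 with AII, -0.62 to 0.32 for ZFP36 with AII+EGF, -0.097 to 0.093 for ZFP36L1 with AII+EGF and -0.042 to 0.15 for ZFP36L1 with EGF. After 24 h with AII they were -0.18 to 0.11 for BTG1, -0.050 to 0.041 for BTG2, -0.15 to 0.014 for BTG3 and -0.0038 to 0.069 for ZFP36L1. With AII+EGF they were -0.081 to 0.21 for BTG1, -0.14 to 0.0027 for BTG2, -0.070 to 0.15 for BTG3, -0.062 to 0.10 for TOB2, -0.24 to 0.18 for ZFP36 and -0.12 to 0.054 for ZFP36L2. With EGF they were -0.046 to 0.24 for BTG1, -0.057 to 0.026 for BTG2, -0.10 to 0.033 for TOB2 and -0.066 to 0.12 for ZFP36L2. The values against control with an unadjusted p under 0.05 stayed positive, at 0.27 to 0.43 for BTG2 and 0.17 to 0.30 for ZFP36L2 with AII+EGF, 0.14 to 0.27 for ZFP36L2 with AII and 0.17 to 0.23 for TOB2 with EGF after 6 h, and at 0.37 to 0.52 for TOB1 and 0.28 to 0.48 for ZFP36L1 with EGF and 0.26 to 0.33 for ZFP36L1 with AII+EGF after 24 h.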
